A study of Arabidopsis thaliana with 12 samples.

Results

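*GRP7* (AT2G21660, also called *CCR2*) and *GRP8* (AT4G39260, also called *CCR1*) are a pair of *Arabidopsis* genes for small glycine-rich RNA-binding proteins. They were chosen by locus name and make up 2 of the 26245 gene models in the table of read counts. Both were among the 19961 models with at least 1 CPM (the count scaled to a library total of 1000000) in at least 3 libraries, which were the ones tested.

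RNA was sequenced from whole 7-day-old seedlings grown with 12 hr of light per day, in 12 libraries that fall into 4 groups of 3. The *RVE8:GR* + DEX group is *rve8-1 RVE8::RVE8:GR* seedlings given dexamethasone (DEX), and the *RVE8:GR* + mock group is the same line given solvent. The *rve8* + DEX and *rve8* + mock groups are *rve8-1* seedlings with the same treatments. Seedlings were treated at ZT4, 4 hr after lights on, and were harvested after 4 hr, at ZT8. DEX is labelled as 30 mM, whereas the methods give the same figure in micromolar units.

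RVE8 is a MYB-like transcription factor of the circadian clock. In the inducible line it is fused to the glucocorticoid receptor, which holds the fusion protein outside the nucleus until DEX is added, and the fusion is driven by the *RVE8* promoter. All 4 groups carry the *rve8-1* mutation, so none is wild type, and the inducible line is a single-insertion transformant made in *rve8-1* plants with a *CCR2::LUC+* reporter, that is luciferase under the promoter of *GRP7*. Each library pooled a mesh of seedlings, so the p-values measure the spread between pools. The *RVE8* model itself, which the fusion transcript also matches, had 5.19 to 6.30 CPM in *RVE8:GR* + DEX and 8.34 to 9.75 CPM in *RVE8:GR* + mock, against 0.60 to 1.33 CPM in *rve8* + DEX and 0.605 to 2.06 CPM in *rve8* + mock, so the libraries follow their line labels. Total counts were 15975840 to 21713130 per library, at which 3 counts are worth 0.138 to 0.188 CPM.

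GRP7 and GRP8 are classical outputs of the plant clock: their transcripts cycle with a peak toward evening and also rise in the cold. Each protein joins an RNA recognition motif to a glycine-rich tail. GRP7 binds its own pre-mRNA and that of *GRP8* and shifts splicing to a form that is degraded by nonsense-mediated decay (NMD), and GRP8 does the same in return, so that the pair forms a negative feedback loop at the level of RNA. The evening element (EE) is a short DNA motif that is common in promoters of evening genes. The morning factors CCA1 and LHY repress genes through it, and RVE8 belongs to the same family of MYB-like factors. The comparisons ask whether entry of RVE8 into the nucleus changes the transcripts of this gene pair.

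On the TAIR10.1 assembly *GRP7* lies on the reverse strand at chr2:9265084-9266557 and *GRP8* on the reverse strand at chr4:18273829-18275216. Each gene has 2 exons and 1 intron, of 309 bp in *GRP7* and 283 bp in *GRP8*. In the RefSeq annotation of this assembly their transcripts are 1165 and 1105 bases long, of which 531 and 510 are coding. The lengths of the TAIR10 cDNA models on which the reads were counted were not examined. Over 504 aligned coding bases the genes were identical at 396, or 78.6%, and the longest identical run was 39 bases. No stretch of 50 bases, the length of a read, from either transcript occurred in a transcript of another locus in that annotation. The partner gene is included, so by these sequences reads of the pair could be told apart. The table gives 1 value per gene, and the RNA forms that differ in the intron were not separated. Any reads from *GRP7* sequence transcribed in the reporter cannot be told apart from those of the gene. Whether the sequenced *rve8* seedlings also carried the reporter is not given in the sources used here, which bears on every *GRP7* difference between the lines.

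Because clock factors act through the EE, its occurrences are printed for both genes. The long EE was searched as AAAATATCT on both strands over the 1500 bp before the start codon, in the RefSeq annotation of TAIR10.1. *GRP7* had 4 long EEs. The first lay in the annotated 5′ UTR at chr2:9266435-9266443 (reverse strand), 119 bp before the start codon. The others lay upstream of the transcript at chr2:9266580-9266588 (reverse strand), chr2:9266604-9266612 (forward strand) and chr2:9266625-9266633 (forward strand), at 264, 288 and 309 bp. *GRP8* had 1 long EE, at chr4:18275220-18275228 (forward strand), 262 bp before the start codon and 4 bp before the transcript. Each sequence is written 5′ to 3′ on the strand that carries the motif, with 10 bases on either side, and the capitals mark the EE to which the coordinates refer.
GRP7 EE at 119 bp: ctaaacctagAAAATATCTaaaccttggt
GRP7 EE at 264 bp: gtcccaagatAAAATATCTtttctcgcat
GRP7 EE at 288 bp: gggacaaagaAAAATATCTcagtggagca
GRP7 EE at 309 bp: gtggagcaaaAAAATATCTcatatgtcaa
GRP8 EE at 262 bp: tttcgagcaaAAAATATCTttgtaagaat

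The *CCR2* probe that the study used to assay binding to the EE is 39 bases long. Its longest match to the promoter, 25 bases, falls on the site in the 5′ UTR, and the capitals again mark the EE.
CCR2 probe, matching part: aaacctagAAAATATCTaaaccttg

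The sequence shows which of the 4 *GRP7* elements the probe represents. Of the 23808 promoters of the same length, 2323 (9.76%) held at least 1 long EE and 6 (0.0252%) held at least 4. One of the 6 is AT2G21680, which lies on the opposite strand next to *GRP7* and whose window holds the same 4 sites. *GRP7* also had 1 G-box (CACGTG on both strands, found in 21.1% of promoters) at 211 bp, within the 5′ UTR, and 2 further EE-like motifs (AATATCT, at 101 and 978 bp) outside the long EEs. *GRP8* had no G-box and 1 further EE-like motif, at 278 bp. EE-like motifs, those inside long EEs included, occurred in 41.0% of promoters. A match shows only that the letters are present.

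**Figure D1:**
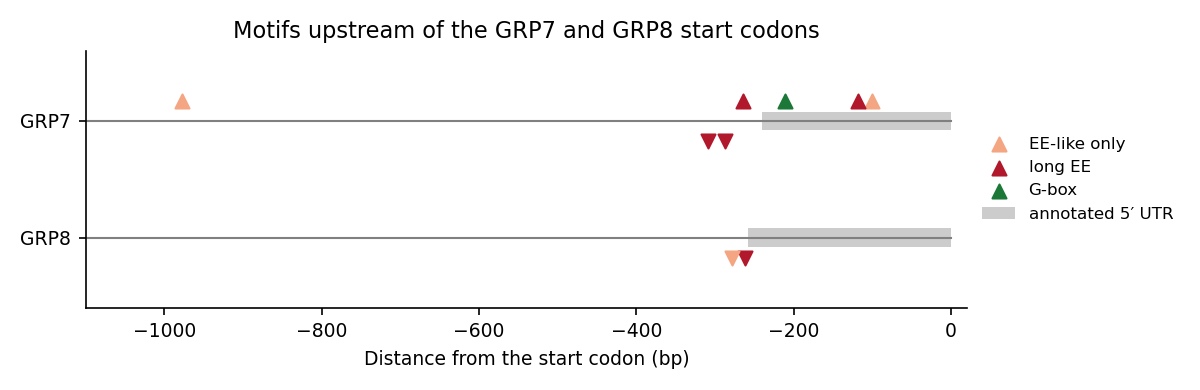
Position of each motif upstream of *GRP7* and *GRP8*, as distance in bp before the start codon, with triangles pointing up for the strand of the gene and down for the opposite strand, and grey bars for the annotated 5′ UTR. *GRP7* has 4 long EEs between 119 and 309 bp, whereas *GRP8* has 1, at 262 bp.

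*GRP7* transcripts rose with DEX in the *RVE8:GR* line, whereas no change of *GRP8* was detected. *GRP7* had 1519, 1337 and 1509 CPM in *RVE8:GR* + DEX, against 1154, 1002 and 987.3 CPM in *RVE8:GR* + mock. All 3 DEX libraries lay above all 3 mock libraries. The means were 1455 ± 103 and 1048 ± 92.3 CPM (SD, n = 3 each), a 1.39-fold difference or 0.47 ± 0.0758 on the log2 scale (SE, edgeR quasi-likelihood test, Benjamini-Hochberg adjusted p = 0.00029). At the threshold used throughout, an adjusted p under 0.01, 2.07% of all tested models were called higher and 1.36% lower in this comparison. Of the 414 models called higher, 270 had a larger log2 fold change than *GRP7*. *GRP7* stayed called in each of the 12 fits that left out 1 library and in all 11 other settings.

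*GRP8* had 479.7, 393.1 and 501 CPM in *RVE8:GR* + DEX, against 469.3, 404.6 and 416.7 CPM in *RVE8:GR* + mock. The lowest of the 6 values was a DEX library and the groups overlapped. The log2 fold change was 0.09 (95% interval −0.10 to 0.28, edgeR adjusted p = 0.669), an interval that does not reach the 0.47 of *GRP7*. Counting error, 0.555 to 0.862% of the value for *GRP7* and 0.987 to 1.22% for *GRP8*, was far below the spread between libraries. In whole seedlings, fewer cells of a type and less RNA per cell cannot be told apart.

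**Figure D2:**
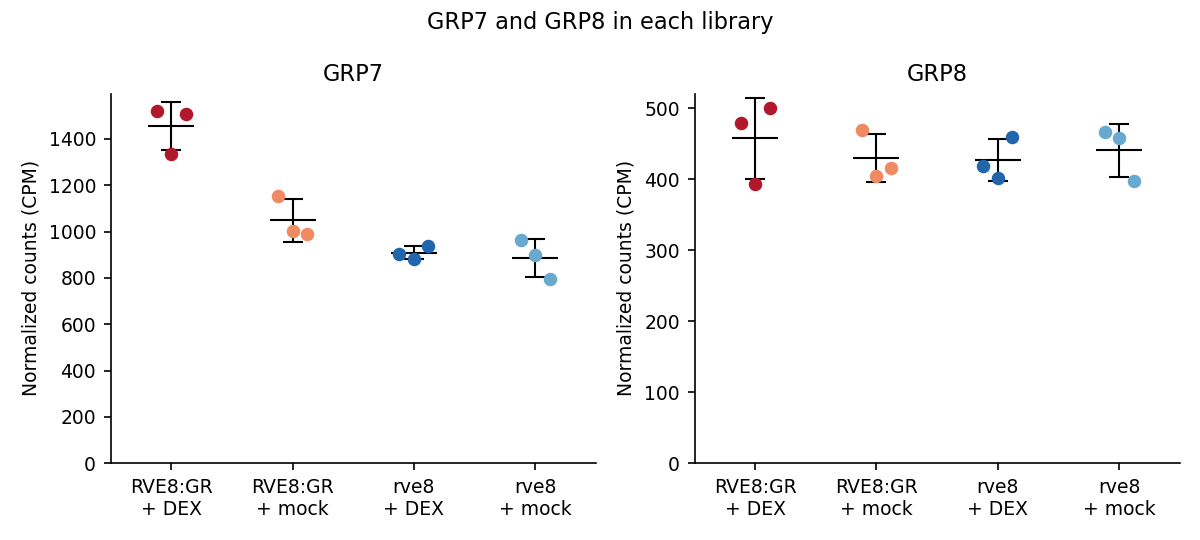
Normalized counts (CPM, linear axes from 0) of *GRP7* and *GRP8* in each of the 12 libraries, with the mean (long bar) and SD of each group. The 3 *RVE8:GR* + DEX libraries hold the highest *GRP7* values, 1337 to 1519 CPM, whereas the 4 groups overlap for *GRP8*.

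The same contrast was seen between the lines after DEX. *GRP7* in *rve8* + DEX had 902.9, 883.2 and 938.2 CPM, so none reached the lowest *RVE8:GR* + DEX value, 1337 CPM. The mean of 1455 CPM in *RVE8:GR* + DEX stood 1.6-fold above the 908.1 ± 27.9 CPM of *rve8* + DEX (log2 fold change 0.68 ± 0.076, edgeR adjusted p = 2.52e-06). In this comparison 1.89% of models were called higher and 2.32% lower. *GRP8* in *rve8* + DEX had 418.6, 402.5 and 460.4 CPM, values that lie within the range of *RVE8:GR* + DEX. Its log2 fold change was 0.10 (95% interval −0.09 to 0.29, edgeR adjusted p = 0.615). This comparison and the DEX response share the *RVE8:GR* + DEX libraries.

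Without the fusion protein, no response to DEX was detected for either gene. *GRP7* averaged 908.1 ± 27.9 CPM in *rve8* + DEX and 886.3 ± 83.5 CPM in *rve8* + mock, where the libraries had 962.3, 899.6 and 796.9 CPM. The groups overlapped, and the log2 fold change was 0.03 (95% interval −0.12 to 0.19, edgeR adjusted p = 0.817). This value changed sign with the scaling, to −0.05 on library totals without TMM factors and −0.01 with libraries scaled to *PP2A*, and to −0.04 without *rve8* + mock replicate 3. *GRP8* averaged 427.2 ± 29.9 CPM in *rve8* + DEX and 440.8 ± 37.4 CPM in *rve8* + mock, where the libraries had 466.7, 458 and 397.9 CPM. Its log2 fold change was −0.05 (95% interval −0.23 to 0.14, edgeR adjusted p = 0.795). DEX was not inert in this line, since 3.96% of models were called higher and 1.57% lower.

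Before activation, the difference of *GRP7* between the lines did not pass the threshold. All 3 *RVE8:GR* + mock libraries, at 987.3 to 1154 CPM, lay above the 3 *rve8* + mock libraries, at 796.9 to 962.3 CPM. The share of all tested models whose libraries separate in this way was not counted. The log2 fold change was 0.24 ± 0.0758 with an edgeR adjusted p of 0.0673, and the adjusted p was between 0.0419 and 0.322 over the alternatives. In this comparison 1.31% of models were called higher and 0.416% lower. *GRP8* overlapped between the lines after mock, with a log2 fold change of −0.04 (95% interval −0.22 to 0.15, edgeR adjusted p = 0.869).

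The difference between the lines in the DEX response of *GRP7* was 0.44 ± 0.107 on the log2 scale (95% interval 0.22 to 0.66), with an edgeR adjusted p of 0.0258, which did not pass 0.01. In this test 0.24% of models were called higher and 0.947% lower. The call depended on the method and on 1 library: the adjusted p was 0.00663 with DESeq2, 0.00937 without the filter on low counts and 0.00328 without *rve8* + mock replicate 3, which had the lowest *GRP7* value of the 12 libraries. Over all alternatives it lay between 0.00328 and 0.0822. For *GRP8* the difference was 0.14 (95% interval −0.13 to 0.40, edgeR adjusted p = 0.695).

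**Figure D3:**
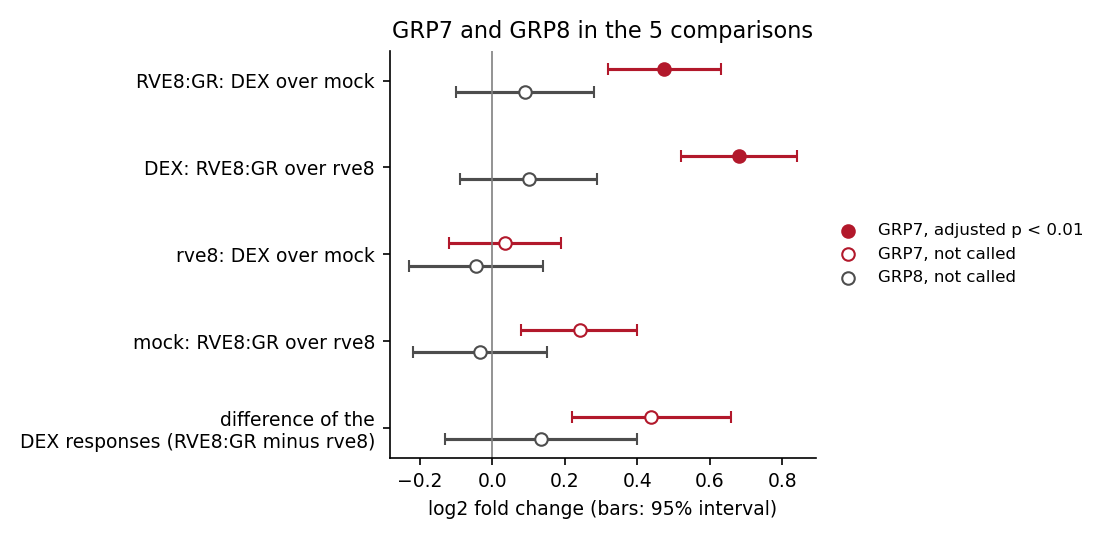
Log2 fold change of *GRP7* and *GRP8* in the 5 comparisons, with 95% intervals, where filled points passed an adjusted p of 0.01. The only filled points are those of *GRP7* for DEX over mock in *RVE8:GR* (0.47) and for *RVE8:GR* over *rve8* after DEX (0.68).

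In order of mean level, *GRP7* was highest in *RVE8:GR* + DEX, then in *RVE8:GR* + mock, *rve8* + DEX and *rve8* + mock. The neighbours *rve8* + DEX and *rve8* + mock did not differ beyond their spread. The ranges of *RVE8:GR* + mock and *rve8* + DEX did not overlap, but this pair was not among the comparisons fitted. For *GRP8* the 4 means lay between 427.2 and 457.9 CPM, and no neighbours in their order differed beyond their spread.

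The markers of tissues were examined beside these values. The summed level of 3 green tissue genes (*RBCS1A*, *LHCB1.1* and *LHCB1.3*) was 32880 to 36070 CPM in *RVE8:GR* + DEX, 33560 to 35910 CPM in *RVE8:GR* + mock, 34610 to 39300 CPM in *rve8* + DEX and 28040 to 34220 CPM in *rve8* + mock. The summed level of 5 root genes was 70.1 to 74.04 CPM in *RVE8:GR* + DEX and 68.66 to 78.96 CPM in *RVE8:GR* + mock, against 82.81 to 84.89 CPM in *rve8* + DEX and 79.27 to 83.51 CPM in *rve8* + mock. The sums did not overlap between the lines under either treatment, but *SCR* made up most of them and none of the 5 root genes was called in either line comparison. The part of these sums in the line differences of *GRP7* was not tested. They overlapped between DEX and mock within *RVE8:GR*. Among the green tissue genes, *LHCB1.1* (log2 fold change 0.30, edgeR adjusted p = 0.00691) and *LHCB1.3* (0.32, adjusted p = 0.00793) were called higher with DEX in *rve8*, and *LHCB1.3* (0.37, adjusted p = 0.00649) was called higher in *RVE8:GR* than in *rve8* after mock. These calls were lost in 12, 15 and 10 of 23 alternatives. Over all tested models, 3.96% were called higher with DEX in *rve8* and 1.31% in *RVE8:GR* than in *rve8* after mock. Whether reads of *LHCB1.1* and *LHCB1.3* can be told apart was not examined. The 3 flower genes summed to at most 0.424 CPM in any library, and *AG* was at 0 in all *RVE8:GR* + DEX libraries.

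The ratio of the gene pair within a library needs no scaling between libraries and set *GRP7* directly against *GRP8*. The log2 ratio of *GRP7* to *GRP8* counts was 1.663, 1.765 and 1.591 in *RVE8:GR* + DEX, against 1.298, 1.308 and 1.245 in *RVE8:GR* + mock. In *rve8* + DEX it was 1.109, 1.134 and 1.027, against 1.044, 0.974 and 1.002 in *rve8* + mock. All 3 *RVE8:GR* + DEX libraries stood above the other 9, and the 3 *RVE8:GR* + mock libraries stood above the 6 *rve8* libraries. The SD within a group was 0.034 to 0.0877. The difference of mean log2 ratio was 0.39 for DEX over mock in *RVE8:GR*, 0.58 for *RVE8:GR* over *rve8* after DEX and 0.28 for *RVE8:GR* over *rve8* after mock. Each of these had p = 0.1 in a two-sided exact permutation test, the smallest that 3 against 3 libraries allow, and 0.133 after Benjamini-Hochberg adjustment over the 4 comparisons. For DEX over mock in *rve8* the difference was 0.08 (exact permutation p = 0.2).

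Over all 12 libraries the design reaches lower p-values. With treatment labels permuted within each line, the log2 ratio was higher by 0.24 with DEX than with mock (two-sided exact permutation p = 0.01). With line labels permuted within each treatment, it was higher by 0.43 in *RVE8:GR* than in *rve8* (p = 0.005, the smallest that the 400 arrangements can give in this exact permutation test). The first value is a mean over a difference of 0.39 in *RVE8:GR* and of 0.08 in *rve8*.

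**Figure D4:**
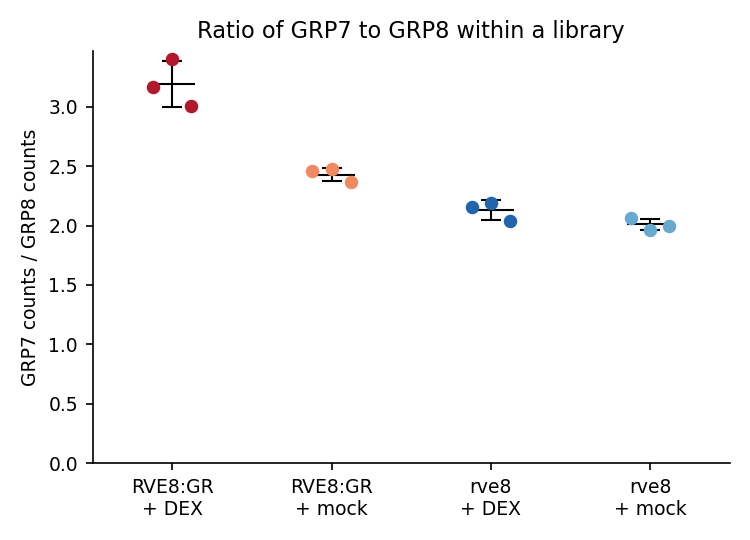
Ratio of *GRP7* to *GRP8* counts within each of the 12 libraries (linear axis from 0), with the mean and SD of each group. The group means are 3.19, 2.43, 2.13 and 2.01 in the order drawn, and the 3 *RVE8:GR* + DEX libraries lie above all the others.

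Per length of transcript, *GRP7* was the more abundant of the pair in every group. The lengths are those of the RefSeq annotation. In CPM per kilobase of transcript (RPKM), *GRP7* had 1249 ± 88.1 RPKM in *RVE8:GR* + DEX, 899.2 ± 79.2 RPKM in *RVE8:GR* + mock, 779.5 ± 23.9 RPKM in *rve8* + DEX and 760.8 ± 71.7 RPKM in *rve8* + mock (SD, n = 3 each). *GRP8* had 414.4 ± 51.7, 389.3 ± 31.1, 386.6 ± 27.1 and 398.9 ± 33.9 RPKM in the same groups. The *GRP7* level was thus 3.03 ± 0.185 times that of *GRP8* in *RVE8:GR* + DEX, 2.31 ± 0.054 times in *RVE8:GR* + mock, 2.02 ± 0.0777 times in *rve8* + DEX and 1.91 ± 0.0467 times in *rve8* + mock. By mean RPKM over all libraries *GRP7* ranked 53 and *GRP8* ranked 180 of 19783 models, so both are among the abundant transcripts of these seedlings.

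Of the other glycine-rich RNA-binding protein genes, 8 were tested. None was called for DEX in *RVE8:GR*, where their log2 fold changes ran from −0.16 to 0.08 with a median of −0.03, against −0.00221 over all tested models. With 2.07% of all models called higher and 1.36% lower, a count of 0 among 8 is near the background. None was called between the lines after DEX (−0.04 to 0.15, median 0.07, against 0.00634) or after mock (−0.28 to 0.08, median −0.04, against −0.00233). In these comparisons 1.89% and 1.31% of all models were called higher and 2.32% and 0.416% lower. One fell with DEX in *rve8*: *GR-RBP4* had 27.5 ± 4.14 CPM in *rve8* + DEX and 36.7 ± 2.82 CPM in *rve8* + mock (log2 fold change −0.42, edgeR adjusted p = 0.00698). This call was lost without *rve8* + DEX replicate 1 or 2, without *rve8* + mock replicate 1 or 2 without *RVE8:GR* + DEX replicate 1, without robust dispersions (0.0111) and in a fit of only the groups compared (0.0169), with edgeR adjusted p up to 0.0587. *GR-RBP3* (−0.34, edgeR adjusted p = 0.0101) and *GR-RBP2* (−0.24, adjusted p = 0.0165) missed the threshold in the same comparison. The median of the 8 there was −0.07, against −0.00743 over all tested models, of which 3.96% were called higher and 1.57% lower. Of these 3 genes, only *GR-RBP4* was called. In the promoters of the 8 genes, *GR-RBP2* had 1 long EE and the other 7 had none. *RZ-1A*, a cold-induced relative with a zinc finger, shares 94.1% of its 50-base stretches with a neighbouring locus in the RefSeq annotation. Whether the cDNA models used for counting also share them was not examined, so its counts may be uncertain.

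**Figure D5:**
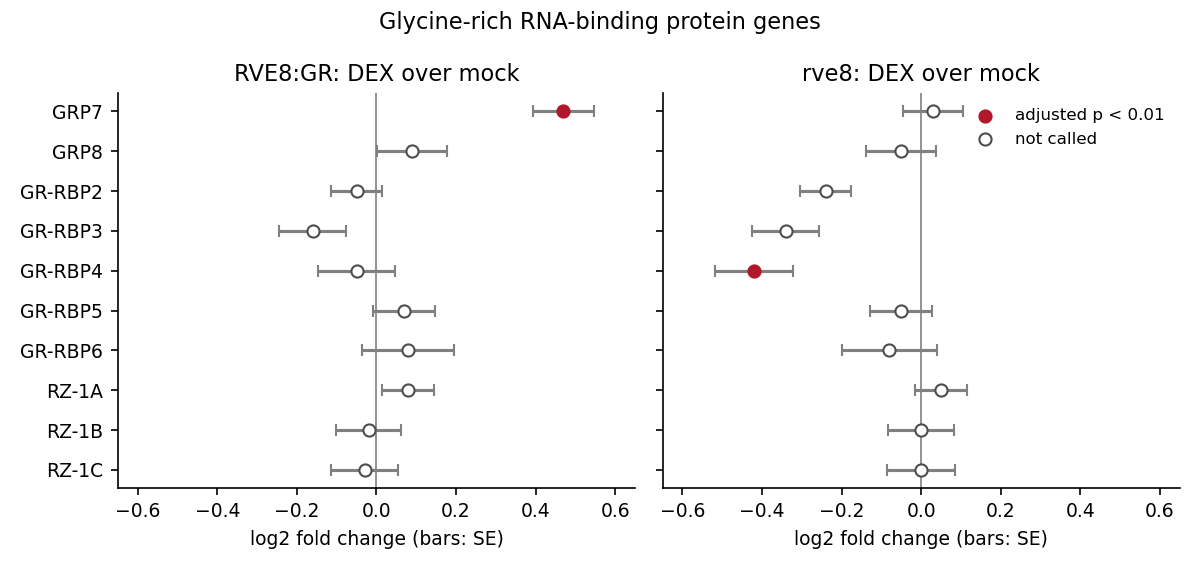
Log2 fold change (bars, SE) of *GRP7*, *GRP8* and the 8 other tested genes for glycine-rich RNA-binding proteins, for DEX over mock in *RVE8:GR* and in *rve8*, with filled points past an adjusted p of 0.01. *GRP7* (0.47) is the only filled point in *RVE8:GR* and *GR-RBP4* (−0.42) the only one in *rve8*.

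Genes that earlier work ties to GRP7 were described next. Of 11, the flowering activator *FT* and the defence gene *PR1* were below the filter and 9 were tested. For DEX in *RVE8:GR*, 3 rose and 6 were not called (median log2 fold change 0.05, against −0.00221 over all tested models), where 2.07% of all models were called higher. The dormancy-associated gene *DRM2*, whose RNA GRP7 binds, had 285.3 ± 12.7 CPM in *RVE8:GR* + DEX and 75.5 ± 14.2 CPM in *RVE8:GR* + mock (1.92, edgeR adjusted p = 3.5e-06). *EFR*, an immune receptor gene whose RNA GRP7 also binds, had 11.0 ± 0.489 CPM in *RVE8:GR* + DEX and 6.11 ± 0.542 CPM in *RVE8:GR* + mock (0.85, adjusted p = 0.000667). The defence gene *PR5* rose by 1.67 in *RVE8:GR*, but by 2.10 with DEX in *rve8* as well (edgeR adjusted p = 7.35e-07 and 3.12e-07). The difference between these responses of *PR5* was −0.44 (adjusted p = 0.444).

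Between the lines after DEX, *DRM2* (1.47), *EFR* (0.91) and the flagellin receptor gene *FLS2* (0.44) were higher in *RVE8:GR* and 6 genes were not called, with a median of 0.34 against 0.00634 over all tested models, of which 1.89% were called higher. *FLS2* had 43.5 ± 1.65 CPM in *RVE8:GR* + DEX and 32.2 ± 4.52 CPM in *rve8* + DEX (edgeR adjusted p = 0.0027), and this call was lost without *RVE8:GR* + DEX replicate 2 (0.0189) or *rve8* + DEX replicate 2 (0.0219) or 3 (0.0309). With DEX in *RVE8:GR*, *FLS2* changed by 0.05 (edgeR adjusted p = 0.822), and after mock it was 0.36 higher in *RVE8:GR* (0.0212). The difference between the lines in the DEX response was 0.07 for *FLS2* (edgeR adjusted p = 0.861) and 0.49 for *EFR* (0.319). DEX in *rve8* raised 2 of the 9, *PR5* and *DRM2*, with a median of 0.24 against −0.00743 over all tested models, of which 3.96% were called higher. *DRM2* rose by 0.83 (edgeR adjusted p = 0.00183), a call lost without *rve8* + mock replicate 1 (0.0177). The difference between the lines in the DEX response of *DRM2* was 1.09 (adjusted p = 0.00745). It was lost, with adjusted p between 0.01 and 0.0261, without the filter on low counts and without any 1 of the 3 *RVE8:GR* + DEX or 3 *rve8* + DEX libraries, *RVE8:GR* + mock replicate 1 or *rve8* + mock replicate 1. None of the 9 was called after mock, where 1.31% of all tested models were called higher and 0.416% lower. The median of the 9 was 0.36 after mock, against −0.00233 over all tested models. The floral repressor *FLC* stayed at 0.881 to 4.29 CPM and was called in no comparison. *PR2*, a defence gene, varied so widely between libraries of a group (0.0518 to 9.88 CPM in *RVE8:GR* + mock) that its large fitted changes were not called.

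The 4 NMD factors examined, which act on the alternative splice forms of *GRP7* and *GRP8*, were all tested and none was called in any comparison. Their log2 fold changes lay between −0.08 and 0.16 and the medians between −0.06 and 0.07. Per comparison, 0.24 to 3.96% of all tested models were called higher and 0.416 to 2.32% lower, so 0 of 4 is near the background.

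Clock genes gave a measure of the size of the *GRP7* response. Of 7, the 5 evening genes rose with DEX in *RVE8:GR*: *PRR5* by 1.16, *TOC1* by 0.64, *LUX* by 0.62, *ELF4* by 0.55 and *GI* by 0.43 on the log2 scale (edgeR adjusted p between 5.89e-08 and 0.0012). The 0.47 of *GRP7* thus lay between *GI* and *ELF4*. The median of the 7 was 0.55, against −0.00221 over all tested models, of which 2.07% were called higher and 1.36% lower. The morning genes *CCA1* and *LHY* were not called with DEX in *RVE8:GR*. Both were lower in *RVE8:GR* than in *rve8* after DEX, by −1.71 and −2.13, where the 5 evening genes were all higher. The median there was 0.48, against 0.00634 over all tested models, of which 1.89% were called higher and 2.32% lower. The *ELF4* calls were lost without *RVE8:GR* + mock replicate 2 for the DEX response (0.0102), and after DEX without *RVE8:GR* + DEX replicate 2 or 3 or *rve8* + DEX replicate 1 or 2 (edgeR adjusted p up to 0.0416). With DEX in *rve8* the only calls among the 7 were *CCA1* (0.88) and *LHY* (0.72, adjusted p = 0.0089, lost in 15 of 23 alternatives, of which 10 left out 1 library). The medians of the 7 were 0.23 with DEX in *rve8* and 0.13 after mock, against −0.00743 and −0.00233 over all tested models. Of all tested models, 3.96% were called higher and 1.57% lower with DEX in *rve8*, and 1.31% and 0.416% after mock.

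After mock, *PRR5* (0.60) and *GI* (0.28) were higher and *CCA1* (−0.54) and *LHY* (−0.999) lower in *RVE8:GR* than in *rve8* (edgeR adjusted p between 0.000634 and 0.00825), so a line difference before activation was called for some clock genes although not for *GRP7*. The *GI* call was lost in 17 of 23 alternatives, among them every fit without 1 library except that without *RVE8:GR* + mock replicate 2, that of *LHY* in 5 and that of *CCA1* in 4. The *LHY* call was lost without any 1 of the *RVE8:GR* + mock libraries or *rve8* + mock replicate 2 or 3, and that of *CCA1* without any 1 of the *RVE8:GR* + mock libraries or *rve8* + mock replicate 3.

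The 6 promoters with at least 4 long EEs, the number in *GRP7* itself, were set side by side, as a group defined by sequence. A lower cutoff was not examined. *GRP7*, *PRR5* and AT4G33980 were called higher with DEX in *RVE8:GR* (0.47, 1.16 and 1.32) and between the lines after DEX (0.68, 1.57 and 1.45). Over all tested models, 2.07% and 1.89% were called higher in these comparisons. AT1G07040 was not called in any comparison (0.18 and 0.22), and AT2G21680 and AT4G31354 were below the filter. *GRP8*, with 1 long EE, shared this number with *ELF4* and *LUX*, which were called higher in both comparisons, and with *GR-RBP2*, which was called in none. Counted as the short EE (AAATATCT on both strands, which every long EE contains, found in 20.6% of promoters), *ELF4* had 5 sites and *LUX* had 3, against 1 in *GRP8* and 1 in *GR-RBP2*. *TOC1*, with 2 long EEs, and *GI*, with 3, were also called higher with DEX in *RVE8:GR* and between the lines after DEX. These genes come from chosen lists, and a tie of the number of sites to the response was not tested.

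The models whose pattern over the 12 libraries was most like that of *GRP7* were found by the root mean square difference of log2 CPM, each centred on its mean, among 15584 models with a mean of at least 5 CPM. The nearest were *BBX8* (0.0896), *ALDH5F1* (0.0908), *BGAL10* (0.0941), *GI* (0.104) and *scpl35* (0.105), against a root mean square of 0.299 for *GRP7* about its own mean. Their log2 fold changes for DEX in *RVE8:GR* ran from 0.41 to 0.49. Because the models were chosen for likeness over these same 12 libraries, values near that of *GRP7* follow from the choice. *GRP8* was at rank 1905 (0.261) in that order. The models nearest to *GRP8*, led by AT2G23090 (0.067) and *CAM6* (0.0698), were themselves flat, which follows from the same choice. The root mean square of *GRP8* about its own mean was 0.117, and *GRP7* stood at rank 13110 of the same models.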

How the data were processed

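The deposited file holds, for each gene model, the counts that the authors made. Per the methods, reads were filtered (FASTX-toolkit), aligned by BWA to one cDNA model per gene (TAIR10) and counted if they mapped in reverse orientation. Treatment of reads with several alignments is not given in the sources used here. All sample columns were used, with 33457 empty cells taken as 0.

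edgeR 4.0.16 in R 4.3.3 fitted all 12 libraries together, with TMM factors, robust quasi-likelihood dispersions and Benjamini-Hochberg adjustment over the 19961 models that reached 1 CPM in 3 or more libraries. The biological coefficient of variation was 0.0824. On simulated data, 98.0% of 200 models changed by 1 on the log2 scale were recovered for DEX in *RVE8:GR*; smaller changes were not simulated. Fold change intervals come from the SE and the test's degrees of freedom. Ratios were tested with exact permutation tests (scipy 1.17.1). Alternatives covered scaling, filter, tool (DESeq2 1.42.0, the exact test of edgeR), threshold, replicate block and each library left out.

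Coordinates, transcript lengths and sequences are from RefSeq TAIR10.1 (25259 models matched by name, 631 by locus, 355 unmatched). Named genes are the pair, fixed lists and the 5 most alike models. The genes and lists were chosen with earlier results of these data known.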

Additional observations from a re-analysis of the deposited data

Results flagged for a closer look

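For 5 genes of the lists the DEX response differed between the lines in the test of that difference (edgeR quasi-likelihood test, adjusted p under 0.01), each given as log2 response in *RVE8:GR* minus that in *rve8*. The clock list had 2 higher and 1 lower of 7 tested. The list tied to GRP7 had 1 higher of 9, and the green tissue list 1 lower of 3. No gene of the other lists was called. Over all tested models, 0.24% were called higher and 0.947% lower. The lists were chosen with earlier results of these data known. *DRM2*, whose RNA GRP7 binds, differed by 1.09, a call lost in 9 of 21 alternatives, and *PRR5*, an evening clock gene, by 0.97. *ELF4*, another evening clock gene, differed by 0.68, a call lost in 11 of 21 alternatives. *CCA1*, a morning clock gene, differed by −1.17. *LHCB1.1*, a gene of the light-harvesting antenna, differed by −0.57, a call lost in 3 of 21 alternatives.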

How the results depend on the processing

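*GRP7* kept its direction and its call for DEX in *RVE8:GR* (0.433 to 0.547 without 1 library) and for the lines after DEX (0.648 to 0.733) under all 23 alternatives. *GRP8* was called in none. Signs turned for uncalled values: for *GRP7* with DEX in *rve8* to −0.0464 without TMM factors, −0.00932 scaled to *PP2A* and −0.0405 without *rve8* + mock replicate 3 (−0.0405 to 0.0958 without 1 library), and for *GRP8* after mock to 0.00128 without *RVE8:GR* + mock replicate 2 and 0.00224 without *rve8* + mock replicate 1 (−0.111 to 0.00224). The difference between the lines in the DEX response of *GRP7* was called with DESeq2 (0.432), without a filter (0.439), at an adjusted p under 0.05 (0.439) and without *rve8* + mock replicate 3 (0.513; 0.377 to 0.515 without 1 library).

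Counts of models called for DEX in *RVE8:GR*, the lines after DEX, DEX in *rve8*, the lines after mock and the difference were 685, 842, 1103, 344 and 237, and 1345, 1458, 2476, 1069 and 560 at an adjusted p under 0.05. Without 1 library they ran from 376 to 825, 532 to 952, 512 to 1401, 138 to 621 and 126 to 317. The exact test of edgeR called 1083 for DEX in *RVE8:GR* and 782 after mock, DESeq2 called 656 after mock and 438 for the difference, and a fit of only the groups compared called 214 after mock; the cause was not tested.

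Whether replicate numbers pair the libraries was not settled. Deviations correlated from −0.0827 to 0.209 within 18 same-numbered pairs and from −0.221 to 0.173 within 36 others, ranges that overlap. The replicate block called more models than the main fit in each comparison. With the replicate block the log2 fold change of *GRP7* was 0.476 for DEX in *RVE8:GR* and 0.438 for the difference (edgeR adjusted p = 0.0166), and the block called 791, 912, 1251, 434 and 260 models; among genes named, it ended the calls of *LHCB1.1* and *LHCB1.3* with DEX in *rve8* and of *ELF4* for the difference. The difference has no exact test and no fit of 2 groups. Ratios per length without each library were added after seeing the data and moved by less than 1 SD. Depth limits neither gene.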
